A study of Homo sapiens with 4 samples.

Results

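The nuclear genes for the subunits of respiratory complex I were examined in RNA immunoprecipitation sequencing (RIP-seq) of the m6A demethylase ALKBH5. Members were all rows of the deposited expression table whose symbol starts with NDUF, goes on with A, AB, B, C, S or V and a number, and holds no hyphen, which leaves out the assembly factors (NDUFAF), readthrough genes and antisense RNAs. The rule found 39 genes of 26830 symbols. The cells were NOMO-1, a human acute myeloid leukaemia line of monocytic type. All libraries came from cells with the genotype ALKBH5 OE: a lentivirus supplied the ALKBH5 coding sequence with a 3xFlag tag, and selection was by puromycin and by sorting of GFP-positive cells, followed by UV crosslinking. Total RNA before the pull-down (antibody: none) was sequenced as input 1 and input 3, and RNA recovered with an anti-Flag antibody as Flag-IP 1 and Flag-IP 3, so n = 2 in each group. The transgene's promoter is not named, the endogenous ALKBH5 gene was not removed, and no pull-down from untagged cells is analysed here, so the level that sticks without the tag was not measured. Whether libraries of one group stem from separate cultures is not stated, so a p-value here covers no more than library-to-library spread, possibly technical.

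Complex I is the first enzyme of the mitochondrial respiratory chain. It takes electrons from NADH, passes them along iron-sulfur clusters to ubiquinone and uses the energy to pump protons across the inner membrane. The N module oxidises NADH, the Q module reduces ubiquinone, and the membrane arm, with a proximal and a distal part, pumps protons. Core subunits do the chemistry and have bacterial relatives, while accessory subunits surround them. The proton channels themselves are encoded in mitochondrial DNA, and those mRNAs are not analysed here. ALKBH5 is an eraser of N6-methyladenosine (m6A), a methyl mark on mRNA, and acts mostly in the nucleus. Complex I mRNAs are short messages that are translated in the cytosol.

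Values were TPM, transcript abundances per length scaled to 1000000 in each library, so the sequencing depth behind a value is unknown and it has no counting interval. Structural RNAs such as ribosomal RNA, 7SL and 7SK held 96.3% to 96.8% of the TPM in input and 92.5% to 93.6% in Flag-IP. Other genes thus had more room in Flag-IP. Most were higher there, and how far this came from the added room was not tested. Of 10 markers of myeloid leukaemia 7 were at 1 TPM or more in all 4 libraries, and MPO was below 1 TPM in all. Of 17 markers of other cell types 1 reached 1 TPM, NKG7. ALKBH5 itself was at 4.62 and 4.91 TPM in input and 10.1 and 8.91 TPM in Flag-IP. Differences are given on 2 scales, both in log2(value + 1), from limma fits over every gene whose mean reached 1 TPM. The deposited scale uses TPM as they are. The median-ratio scale first divides each library by its median ratio to the geometric means of tested genes above 0 in all libraries. On that scale 0 stands for the typical tested gene, called the typical gene below. Because 1 is added, the change of a gene near 0 TPM is understated on both.

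All 39 members were above 0 TPM in every library, and 35 reached a mean of 1 TPM and were tested. Only NDUFV3 of these had an input mean below 1 TPM. Most complex I mRNAs were higher in Flag-IP than in input as deposited, as were most other genes. In limma 30 of the 35 passed as higher at an adjusted p below 0.05 and none as lower, where 86.6% of all 6487 tested genes passed as higher and 0.74% as lower. No tested member had a difference below 0 on that scale, so none was lower at an unadjusted p below 0.05 either. The median member difference was 0.87, and that of all tested genes 0.84; the median ratio of the group means was 2.04 for members and 2.38 for all tested genes. The order of the medians depended on the setting, with 1.01 for members and 1.19 for all genes at a pseudocount of 0.1, and 0.79 and 0.93 with a filter at 5 TPM. Of all tested genes 2203 (34.0%) had an input mean below 1 TPM and so were tested only because of their Flag-IP level. This held for 1 of the 35 members, so the members' share and median ratio are not read against those of all genes. With the filter at 5 TPM 78.9% of 19 members and 82.7% of 1539 genes passed as higher. In 32 members each Flag-IP value exceeded each input value, as in 93.1% of all tested genes. The p-values of the deposited scale may be too small, because its error came wholly from the fitted trend with level. Without input 1, 20 of 36 members passed as higher (55.6%), as did 60.2% of all genes tested then.

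Relative to the typical gene, 11 members fell, 1 rose and 23 did not pass. In limma on the median-ratio scale 18.6% of all tested genes passed as lower and 22.3% as higher. Here too 34.0% of those genes were tested only because of their Flag-IP level, so the members' share is not read against theirs. The 0 of this scale was set under the same filter, so it may lie high for genes well expressed in input. At 5 TPM NDUFB8 went from -0.39 to -0.18 and NDUFB3 from 0.31 to 0.49. The median of the 19 members tested then was -0.18. How far the filter set the members' position was not tested. With the filter at 5 TPM 26.3% of members and 23.1% of all genes passed as lower. With quantile scaling these shares were 14.3% and 18.8%. The members that fell were NDUFB7, NDUFS7, NDUFS6, NDUFA13, NDUFS8, NDUFV1, NDUFB10, NDUFA3, NDUFB9, NDUFA11 and NDUFB8. Member differences ran from -1.07 to 0.33 with a median of -0.19, against -0.01 for all tested genes. The member median was -0.11 with quantile scaling (all genes -0.051), turned to 0.013 when structural RNAs were left out of the scaling (all genes 0.24) and turned to 0.10 when the trend with transcript length was removed (all genes 0.012). Both Flag-IP libraries lay below both inputs for 15 members and above for 7, against 37.1% and 37.0% of all tested genes. Fewer members passed as lower without Flag-IP 1 or without input 3, as did fewer of all genes. The member median was -0.084 without Flag-IP 1 (all genes -0.0039) and -0.24 without input 3 (all genes -0.0087). The single higher call was lost whichever library was left out. NDUFS6 and NDUFS8 stayed lower in all alternatives but the one without a filter, where no member passed.

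**Figure D1:**
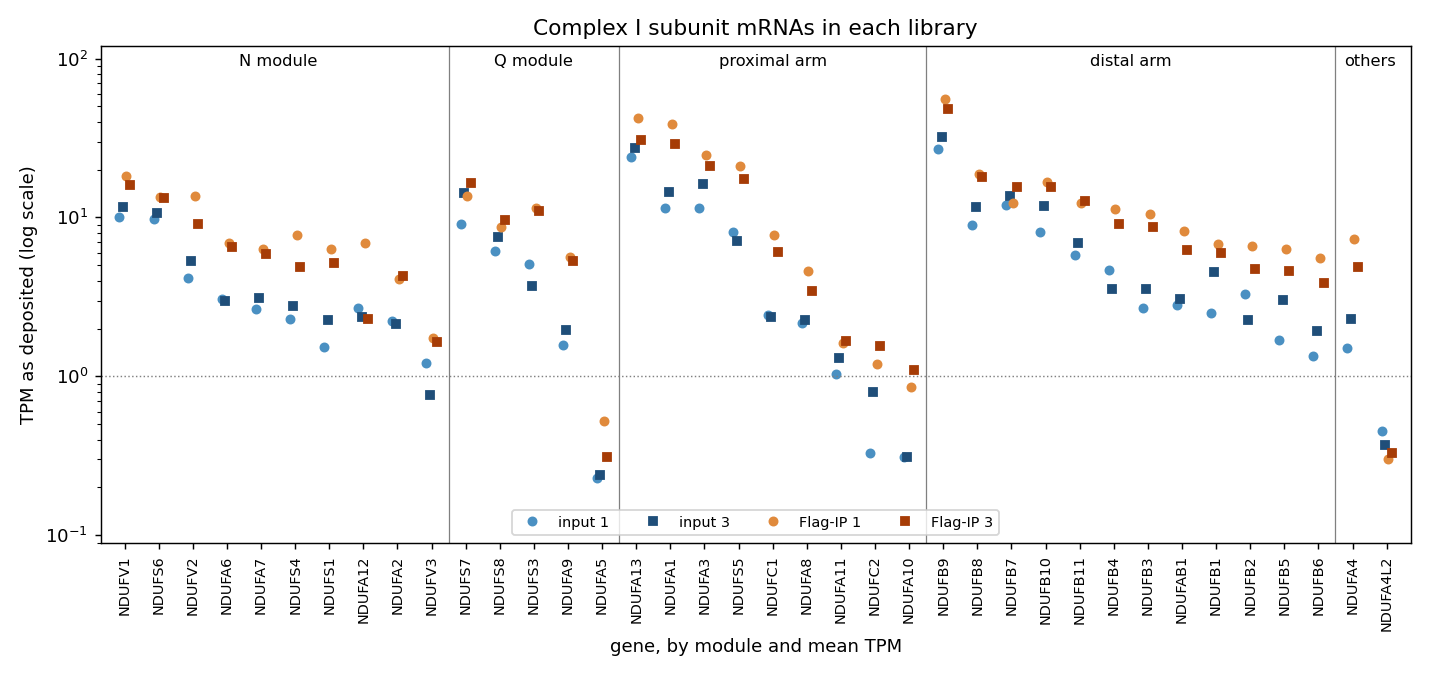
TPM as deposited (log axis) of 38 of the 39 members in each of the 4 libraries, grouped by module and ordered by mean level; the dotted line marks 1 TPM. Most Flag-IP points (orange and brown) lie above the input points (blue), while those of NDUFB7, NDUFS7 and NDUFA12 overlap with them.

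The levels of the subunits spanned a wide range although each occurs in the complex in nearly equal numbers. NDUFB9, a distal-arm subunit of the LYR family that binds acyl carrier protein, was the most abundant at 27.1 and 32.0 TPM in input and 55.3 and 48.0 TPM in Flag-IP. NDUFA13, also known as GRIM-19, followed at 24.2 and 27.2 TPM in input and 41.9 and 30.7 TPM in Flag-IP, and NDUFA1, a small X-linked membrane subunit, at 11.5 and 14.6 TPM in input and 38.5 and 28.8 TPM in Flag-IP. In Flag-IP 3 NDUFA13 and NDUFA1 lay close together, while in input NDUFA13 was clearly the higher. At the low end of the tested members stood NDUFB6 (mean 3.16 TPM), NDUFA8 (3.12), NDUFA11 (1.41) and NDUFV3 (1.34), accessory subunits of the membrane arm and, for NDUFV3, of the N module. The order of levels was largely kept between groups: over the 35 tested members Spearman's rho of TPM was 0.94 between the inputs, 0.95 between the Flag-IP libraries, and 0.90 and 0.94 between input and Flag-IP of the same number. These are descriptions across genes, which are not independent replicates.

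Differences among members do not depend on how the libraries are scaled when each gene is given as its share of the summed member TPM. NDUFB7 took 5.71% and 5.52% of that sum in input and 2.66% and 3.97% in Flag-IP. NDUFA13 took 11.5% and 10.9% in input and 9.13% and 7.81% in Flag-IP. Both genes thus held less of the set after the pull-down in each library. NDUFA1 went the other way, from 5.45% and 5.85% to 8.37% and 7.32%. NDUFB9 kept a like share, 12.9% in each input and 12.03% and 12.2% in Flag-IP. These shares were not tested, and with 2 libraries against 2 an exact two-sided permutation test cannot go below p = 0.333.

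The N module held 10 members, all tested, of which NDUFS6 and NDUFV1 (20.0%) fell relative to the typical gene and none rose. As deposited 9 were higher. Over all tested genes 18.6% fell and 22.3% rose relative to the typical gene, and 86.6% were higher as deposited. NDUFV1 (chromosome 11, 67605653 to 67612554, plus strand, GRCh38), the core subunit that binds NADH and flavin, was at 10.1 and 11.6 TPM in input and 18.4 and 16.1 TPM in Flag-IP. The groups did not overlap, yet the ratio of the means, 1.59, was below the median ratio of the tested members, 2.04. The median-ratio difference of NDUFV1 was -0.55 ± 0.10 (SE, limma adjusted p = 0.0088). With quantile scaling that was -0.30 and did not pass (adjusted p = 0.059, limma). NDUFS6 (chromosome 5, 1801400 to 1816605, plus strand), a zinc-binding accessory subunit, was at 9.74 and 10.7 TPM in input and 13.5 and 13.3 TPM in Flag-IP, with a ratio of 1.31. Its median-ratio difference was -0.80 ± 0.12 (limma adjusted p = 0.0050).

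The other core subunits of the N module did not pass relative to the typical gene. NDUFS1 (chromosome 2, 206114817 to 206159603, minus strand), the largest subunit and carrier of several iron-sulfur clusters, was at 1.54 and 2.25 TPM in input and 6.33 and 5.19 TPM in Flag-IP, with a ratio of 3.04. Its median-ratio difference was 0.27 ± 0.12 (limma adjusted p = 0.12); scaled without structural RNAs it was 0.59 and passed (adjusted p = 0.013, limma). NDUFV2, an iron-sulfur subunit next to NDUFV1, was at 4.13 and 5.32 TPM in input and 13.7 and 9.04 TPM in Flag-IP, a difference of -0.02 ± 0.13. NDUFV1 was thus called lower and its neighbour NDUFV2 lay near the typical gene; the difference between them was not tested.

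Among the accessory subunits of the N module, NDUFS4, whose loss is a known cause of Leigh syndrome, was at 0.02 on the median-ratio scale, NDUFA6, a LYR protein, at -0.10, NDUFA7 at -0.15, NDUFA2, which has a thioredoxin-like fold, at -0.25 and NDUFV3 at -0.27. None of these passed. NDUFV3, the least abundant tested member, was at 1.22 and 0.76 TPM in input and 1.74 and 1.65 TPM in Flag-IP. Its median-ratio difference was -0.57 and passed without input 3 (limma adjusted p = 0.025), and was -0.0084 without input 1. NDUFA12 was at 2.69 and 2.35 TPM in input, 6.86 TPM in Flag-IP 1 and 2.28 TPM in Flag-IP 3. Flag-IP 3 was the lowest of the 4 libraries and Flag-IP 1 by far the highest, so the groups overlapped. The median-ratio difference of NDUFA12 was -0.44 ± 0.30 (limma adjusted p = 0.28). Without Flag-IP 1 it was -0.82 and passed (limma adjusted p = 0.027), and the deposited difference, 0.53 with all libraries (limma adjusted p = 0.015), turned to -0.10 (adjusted p = 0.67, limma).

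In the Q module NDUFS7 and NDUFS8 (40.0% of the 5 tested) fell relative to the typical gene, beside 18.6% of all tested genes. NDUFS3 and NDUFA9 did not pass. NDUFS7 (chromosome 19, 1383527 to 1395589, plus strand), which carries the last iron-sulfur cluster before ubiquinone, was at 9.13 and 14.3 TPM in input and 13.6 and 16.5 TPM in Flag-IP. Input 3 exceeded Flag-IP 1, so the groups overlapped as deposited, and the median-ratio difference was -0.81 ± 0.21 (limma adjusted p = 0.028). That call was lost without input 3 (-0.63), without Flag-IP 1 (-0.49), with a filter at 5 TPM and with quantile scaling (-0.58). NDUFS8 (chromosome 11, 68030617 to 68036644, plus strand), another iron-sulfur subunit, was at 6.18 and 7.48 TPM in input and 8.73 and 9.61 TPM in Flag-IP, a difference of -0.74 ± 0.15 (limma adjusted p = 0.011).

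NDUFS3, a core subunit without a cofactor, was at 5.13 and 3.72 TPM in input and 11.5 and 10.99 TPM in Flag-IP (0.08 ± 0.21), and NDUFA9, an accessory subunit that binds NADPH, at 1.58 and 1.96 TPM in input and 5.67 and 5.3 TPM in Flag-IP (0.28 ± 0.11, limma adjusted p = 0.083). Across the 7 core subunits of both modules 3 were lower (42.9%) with a median of -0.02, and across the 27 tested accessory subunits, NDUFA4 left out, 8 were lower (29.6%) with a median of -0.25, beside 18.6% lower and a median of -0.01 over all tested genes. Whether core and accessory subunits differ was not tested.

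In the proximal membrane arm 7 of 9 members were tested. Of these NDUFA13, NDUFA3 and NDUFA11 (42.9%) fell relative to the typical gene, beside 18.6% of all tested genes. NDUFA13 (chromosome 19, 19515736 to 19529054, plus strand) had a ratio of 1.42 and a median-ratio difference of -0.75 ± 0.11 (limma adjusted p = 0.0038), although it was higher as deposited (0.47, limma adjusted p = 0.032); with quantile scaling the difference was -0.33 and did not pass (adjusted p = 0.11, limma). The deposited call of NDUFA13 was lost in limma without input 1 (adjusted p = 0.24), input 3 (adjusted p = 0.089) or Flag-IP 1 (adjusted p = 0.36, difference 0.25) and with the replicate block (adjusted p = 0.19). NDUFA3 was at 11.5 and 16.3 TPM in input and 24.8 and 21.1 TPM in Flag-IP (-0.49 ± 0.13, limma adjusted p = 0.025). NDUFA11, which lies at the contact with complex III in supercomplexes, was at 1.04 and 1.31 TPM in input and 1.63 and 1.67 TPM in Flag-IP (-0.44 ± 0.11, limma adjusted p = 0.023). The NDUFA3 call was lost without input 3, Flag-IP 1 or Flag-IP 3, and the NDUFA11 call without input 3 or Flag-IP 1. The NDUFA3 call was also lost with a filter at 5 TPM (-0.29) and with quantile scaling (-0.21). Both calls were lost with structural RNAs left out (NDUFA3 -0.28, NDUFA11 -0.50) and with the length trend removed (NDUFA3 -0.10, NDUFA11 -0.29). NDUFA1, NDUFC1 and NDUFS5 were at 0.10, 0.19 and 0.06 and NDUFA8 at -0.31 (adjusted p = 0.057 in limma); none of these passed. NDUFA8 was at 2.17 and 2.26 TPM in input and 4.58 and 3.45 TPM in Flag-IP, without overlap.

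The distal membrane arm held 12 members, all tested, and 11 were higher as deposited, beside 86.6% of all tested genes. NDUFB7, NDUFB10, NDUFB9 and NDUFB8 (33.3%) fell relative to the typical gene, beside 18.6% of all tested genes. NDUFB7 (chromosome 19, 14566078 to 14572062, minus strand) had the lowest difference of all tested members. It was at 12.02 and 13.7 TPM in input and 12.2 and 15.6 TPM in Flag-IP, so the groups overlapped and the ratio was 1.08. On the deposited scale the difference was 0.10 ± 0.22 (limma adjusted p = 0.65). Set against the typical gene NDUFB7 stood at -1.07 ± 0.20 (limma adjusted p = 0.0085). It was -0.84 with quantile scaling and -0.91 when scaled without structural RNAs, both past the threshold in limma, and -0.58 with the length trend removed (adjusted p = 0.060, limma).

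NDUFB10 was at 8.11 and 11.8 TPM in input and 16.7 and 15.6 TPM in Flag-IP (-0.50 ± 0.14, limma adjusted p = 0.034). NDUFB9 stood at -0.45 ± 0.10 (limma adjusted p = 0.017) and NDUFB8, a common marker of assembled complex I on protein blots, at -0.39 ± 0.12 (limma adjusted p = 0.048). These calls changed under more alternatives than those of NDUFB7. NDUFB9 turned to 0.079 with quantile scaling and NDUFB8 to 0.033 with the length trend removed. The calls of NDUFB8 and NDUFB9 were lost without input 1, input 3 or Flag-IP 1, and that of NDUFB10 without input 3, Flag-IP 1 or Flag-IP 3. All of these calls were also lost with a filter at 5 TPM, with quantile scaling and with structural RNAs left out. Those of NDUFB8 and NDUFB10 were lost with the length trend removed as well. NDUFB7, NDUFB10, NDUFA8 and NDUFS5 share a cysteine motif through which they are folded in the intermembrane space, and they stood at -1.07, -0.50, -0.31 and 0.06, so members with this shared import route were spread over most of the range.

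The other distal-arm members lay nearer the typical gene. NDUFB3 was at 2.68 and 3.55 TPM in input and 10.5 and 8.69 TPM in Flag-IP, with a ratio of 3.08 and a difference of 0.31 ± 0.11 (limma adjusted p = 0.063). It passed in limma with quantile scaling (0.36, adjusted p = 0.044), with structural RNAs left out (0.61) and with a filter at 5 TPM (0.49). NDUFAB1, the mitochondrial acyl carrier protein that also serves fatty acid synthesis, was at 2.83 and 3.05 TPM in input and 8.16 and 6.20 TPM in Flag-IP, a difference of 0.01 ± 0.10. NDUFB6 stood at 0.19, NDUFB4 at 0.04, NDUFB5 at -0.01, NDUFB2 at -0.19, NDUFB11 at -0.25 and NDUFB1 at -0.29, none of which passed. NDUFB2 and NDUFB1 rested on single inputs: NDUFB2 was at -0.53 and passed without input 3 (limma adjusted p = 0.040) and at 0.11 without input 1, and NDUFB1 was at -0.58 and passed without input 1 (limma adjusted p = 0.033) and at -0.041 without input 3. NDUFB11 was at -0.047 without Flag-IP 1 and -0.38 without Flag-IP 3, and did not pass.

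**Figure D2:**
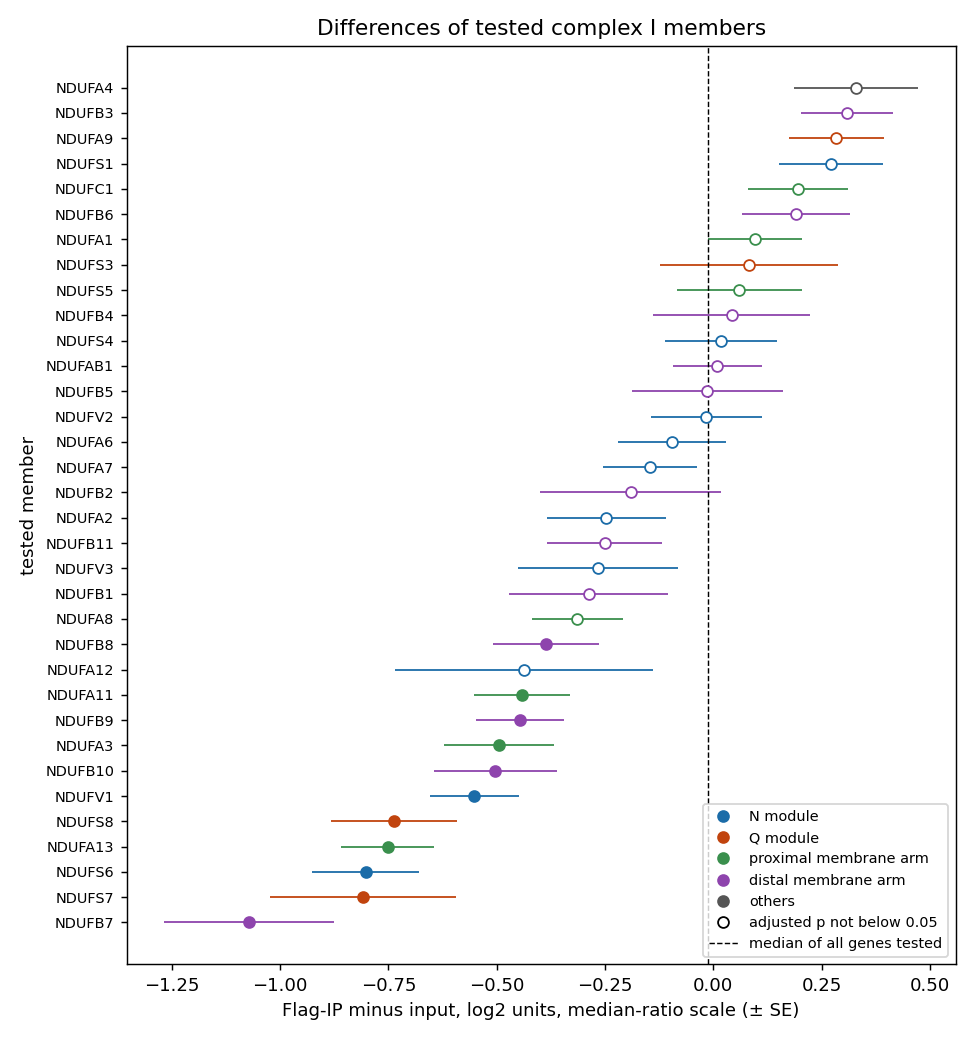
Flag-IP minus input on the median-ratio scale, in log2 units with the SE from limma, for 34 of the 35 tested members in order; filled points passed at an adjusted p below 0.05 and the dashed line is the median of all tested genes. Members run from NDUFB7 at -1.07 to NDUFA4 at 0.33, and each module is spread along the range.

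NDUFA4 carries a complex I name but is found in complex IV. It was at 1.5 and 2.29 TPM in input and 7.33 and 4.91 TPM in Flag-IP, the largest ratio of the tested members (3.23), with a median-ratio difference of 0.33 ± 0.14 (limma adjusted p = 0.11). Scaled without structural RNAs it was 0.66 and passed (limma adjusted p = 0.014). Its paralog NDUFA4L2, a gene known to be induced by low oxygen, was not tested: it stood at 0.45 and 0.37 TPM in input and 0.30 and 0.33 TPM in Flag-IP, the only member whose Flag-IP values both lay below its inputs. The other untested members were NDUFA10 (0.31 TPM in each input, 0.86 and 1.09 TPM in Flag-IP), NDUFC2 (0.33 and 0.80 TPM, then 1.20 and 1.56 TPM) and NDUFA5 (0.23 and 0.24 TPM, then 0.52 and 0.31 TPM). NDUFC2 overlaps the readthrough gene NDUFC2-KCTD14, and in the annotation 17 members overlap another gene on the same strand and 18 have at least 1 pseudogene named after them, 12 each for NDUFA5 and NDUFB4, so the levels of such genes are uncertain.

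The position of the members in this range went with the GC content of the transcript. The 11 members that fell had main transcripts of 53.7% (NDUFB9) to 66.5% (NDUFS7) GC, and none of the 17 tested members below 50.6% GC, the median of tested protein-coding genes, passed in either direction. Those 17 had a median difference of 0.02 relative to the typical gene, and the 18 at or above that GC content one of -0.44. Across the 35 tested members Pearson's r between GC content and the median-ratio difference was -0.77 (Spearman's rho -0.73). The same r was -0.79 in Flag-IP 1 against input 1 and -0.58 in Flag-IP 3 against input 3. Across 6110 tested protein-coding genes it was -0.10, and -0.19 and 0.01 in the same pairs. The difference also went with the level: r with log10 mean TPM was -0.38 over the members and -0.18 over those coding genes. NDUFS6 (53.9% GC) lay well below other members of like GC content such as NDUFA1 (53.8% GC, 0.10). These correlations are descriptions across genes that share libraries. GC content was looked at after the differences were seen, and neither its part in the result nor that of the level was tested.

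Transcript length went with the difference over all genes. Over the tested protein-coding genes r between the difference and the log10 length of the longest annotated transcript was 0.46, and over the members it was 0.16. For the length of the main transcript, from which GC content was taken, r was 0.46 over those genes and 0.37 over the members. The members' median length was 1257 bases, against 3451 bases for all tested genes with an annotated transcript. NDUFS1 (11819 bases) and NDUFA9 (8363 bases) were the longest and lay at 0.27 and 0.28, next to NDUFB3 (755 bases) at 0.31. NDUFB7 (531 bases) and NDUFS5 (548 bases) were the shortest and lay at -1.07 and 0.06. Removing the GC trend of all genes left 12 members lower (34.3%, against 22.0% of all genes) and 1 higher (2.86% against 24.1%). Removing the length trend left 6 lower (17.1% against 14.8%) and 9 higher (25.7% against 19.8%). Of the 6 tested members on chromosome 19, a GC-rich chromosome, 5 fell, while 163 of 460 tested genes there passed as lower.

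**Figure D3:**
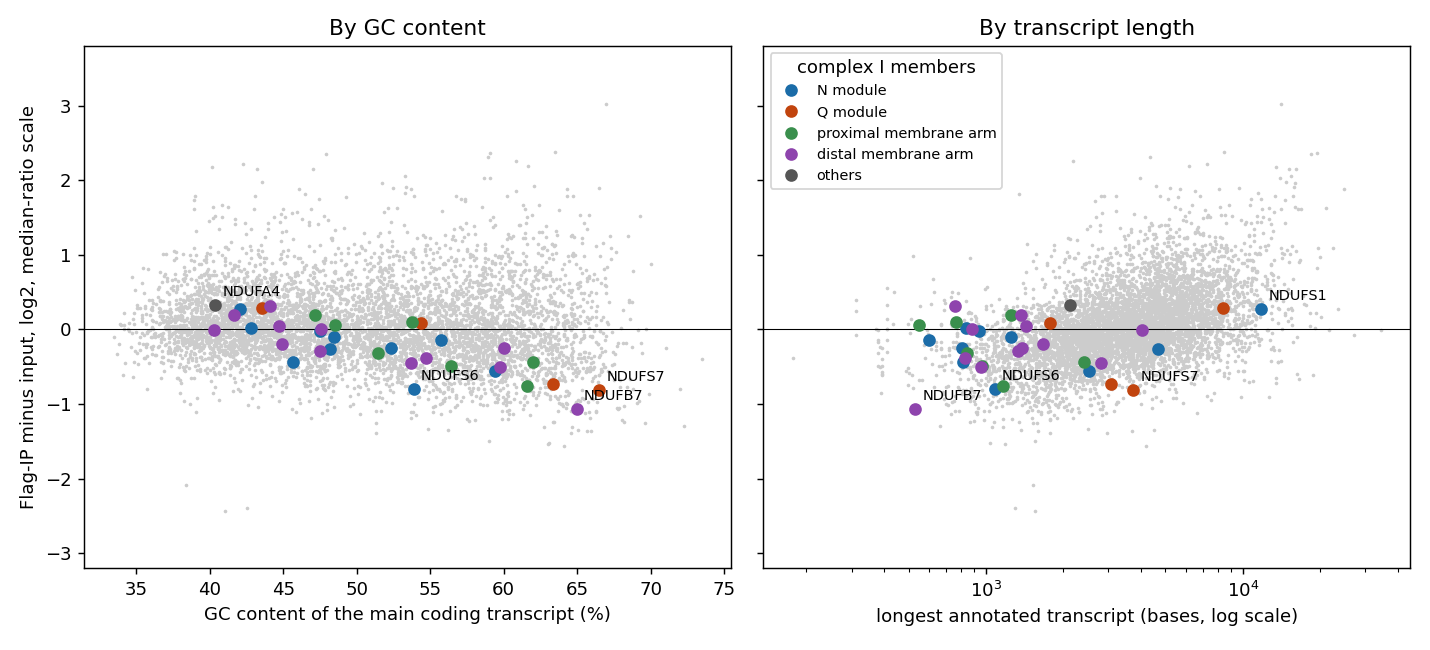
Difference on the median-ratio scale (log2) against GC content of the main coding transcript (left, %) and length of the longest annotated transcript (right, log axis, bases), for tested protein-coding genes (grey) and 34 of the 35 tested members (coloured by module). Over all 35 the members slope down with GC content (r = -0.77), while r with the plotted length was 0.16 and with the main transcript's length 0.37.

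The last 150 coding bases of the 2 members with the lowest difference, and of NDUFB3 and NDUFA4, which stand near the top of the range, show this contrast in base composition; they are from GENCODE 29 transcripts (GRCh38), given 5′ to 3′ without the stop codon, with G and C in capitals. G and C make up 64.7% of the stretch in NDUFB7, 65.3% in NDUFS7, 40.7% in NDUFB3 and 44.0% in NDUFA4.
NDUFB7: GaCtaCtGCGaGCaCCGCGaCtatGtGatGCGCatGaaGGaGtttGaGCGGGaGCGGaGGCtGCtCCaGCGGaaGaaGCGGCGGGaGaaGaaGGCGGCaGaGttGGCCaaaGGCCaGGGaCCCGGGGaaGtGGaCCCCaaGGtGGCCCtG
NDUFS7: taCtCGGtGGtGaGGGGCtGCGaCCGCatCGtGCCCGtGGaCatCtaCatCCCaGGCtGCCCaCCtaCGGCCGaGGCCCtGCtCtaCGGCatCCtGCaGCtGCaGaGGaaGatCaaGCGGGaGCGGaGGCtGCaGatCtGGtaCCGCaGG
NDUFB3: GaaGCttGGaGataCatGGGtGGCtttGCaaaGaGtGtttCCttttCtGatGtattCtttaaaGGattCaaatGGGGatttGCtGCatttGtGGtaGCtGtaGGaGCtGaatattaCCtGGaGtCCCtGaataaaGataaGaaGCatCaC
NDUFA4: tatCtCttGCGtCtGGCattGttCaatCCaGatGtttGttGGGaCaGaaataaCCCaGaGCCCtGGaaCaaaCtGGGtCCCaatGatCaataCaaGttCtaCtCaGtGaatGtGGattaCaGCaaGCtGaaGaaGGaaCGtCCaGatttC

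m6A is placed mainly in a short consensus of which GGACT is the commonest form. This motif was therefore looked for on the sense strand in the last 200 coding bases of each member. It was present in 4 of 39 members, NDUFA1, NDUFA2, NDUFB2 and NDUFB7, all of them tested. That was 11.4% of the 35 tested members, against 20.5% of 6073 tested protein-coding genes with a window of that length. The matches are shown with the motif in capitals, and NDUFA1, with 210 coding bases, has them at coding positions 22 and 58.
NDUFA1 first: gattctccccGGACTctccgtcatg
NDUFA1 second: gttgattccaGGACTggctactgcg
NDUFA2: agggcgtcagGGACTtcattgagaa
NDUFB2: gttcttcagcGGACTcatgtggttc
NDUFB7: ggcacgactgGGACTactgcgagca
The 4 genes stood at 0.10, -0.25, -0.19 and -1.07 relative to the typical gene, of which NDUFB7 alone passed. A match in these letters is a description and not a measured m6A site.

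Genes of 3 related mitochondrial lists were set beside complex I. The lists were chosen with earlier results of these data known, and all comparisons use the same libraries. Of 20 complex I assembly and import factors with a row, 12 were tested, with 9 higher as deposited, beside 86.6% of all tested genes. Relative to the typical gene 1 was higher and 2 (16.7%) lower, at a median of -0.25. Over all tested genes 22.3% were higher and 18.6% lower. ECSIT, an assembly factor of the membrane arm, was at 2.27 and 2.32 TPM in input and 2.44 and 2.51 TPM in Flag-IP (-0.81 ± 0.12, limma adjusted p = 0.0047). FOXRED1, another assembly factor, was at 0.63 and 1.12 TPM in input and 3.43 and 3.61 TPM in Flag-IP (0.50 ± 0.16, limma adjusted p = 0.048). It was among the 5 tested factors (41.7% of the 12) whose input mean was below 1 TPM. Such genes entered the test only through their Flag-IP level, so the filter favours higher calls among them. AIFM1, which brings the import factor CHCHD4 to its place, was at -0.15 and NDUFAF3 at -0.41; neither passed.

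Of 39 tested subunits of complexes II to V, 34 were higher as deposited, beside 86.6% of all tested genes. Relative to the typical gene 10 (25.6%) were lower, beside 18.6% of all tested genes, with a median of -0.16. ATP5D, a subunit of ATP synthase, was at 10.6 and 10.99 TPM in input and 9.86 and 10.1 TPM in Flag-IP (-1.25 ± 0.14, limma adjusted p = 0.0018), close to the position of NDUFB7. COX5B, a subunit of complex IV, stood at -0.98 ± 0.11 (limma adjusted p = 0.0019), while the abundant ATP synthase subunit ATP5B stood at 0.06 and did not pass. Of 70 tested mitochondrial ribosomal proteins 49 were higher as deposited and 27 (38.6%) lower relative to the typical gene, with a median of -0.28. The lowest were MRPL23 at -1.10 and MRPL12 at -1.09 (adjusted p = 0.0053 and 0.0013, limma). No gene of these last lists was higher on that scale in limma, and 1 in each was higher at an unadjusted p below 0.05. Within these lists r between GC content and the difference was -0.55 and -0.66, beside -0.77 for complex I and -0.30 for the 12 assembly and import factors. The difference between these values was not tested.

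The summed TPM of the 39 complex I members was 210.3 and 248.6 in input and 459.5 and 393.4 in Flag-IP. As a share of all TPM outside structural RNAs this was 0.658% and 0.680% in input and 0.613% in each Flag-IP library. The summed complex I messages thus held a slightly smaller part of the TPM outside structural RNAs, without overlap between the groups. Abundant members weigh most in such a sum: scaled without structural RNAs, the median member difference was 0.013 (all genes 0.24). Mitochondrial ribosomal proteins were at 0.590% and 0.546% in input and 0.5% and 0.484% in Flag-IP, and complexes II to V at 1.15% in each input and 1.19% and 1.17% in Flag-IP. These shares were not tested.

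**Figure D4:**
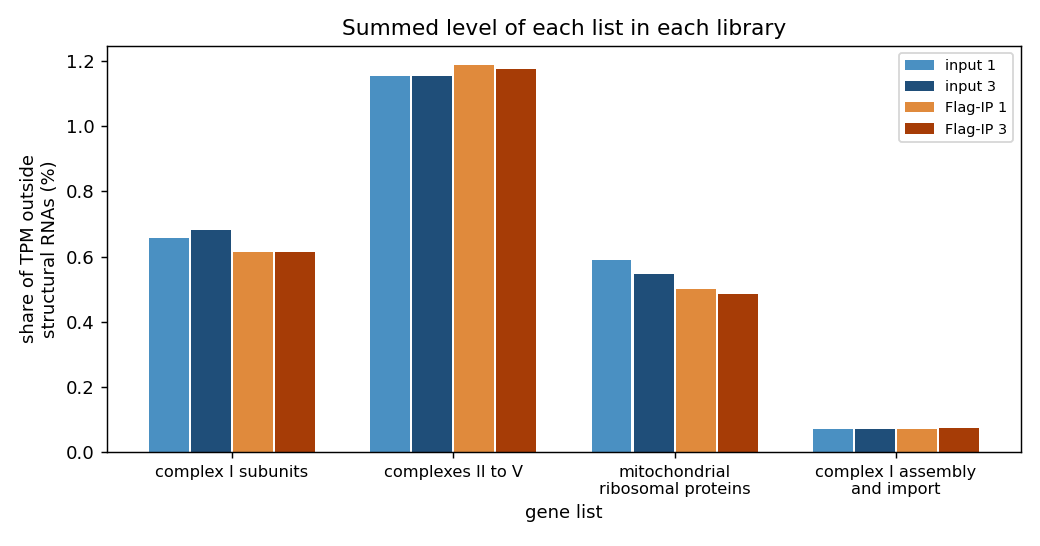
Summed TPM of 4 gene lists as a share (%) of all TPM outside structural RNAs, 1 bar for each library. Complex I subunits were at 0.658% and 0.680% in input and 0.613% in both Flag-IP libraries, while complexes II to V were slightly higher in Flag-IP.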

How the data were processed

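RIP-seq of 2 input and 2 Flag-IP libraries was analysed from a table of 26830 gene symbols. The authors deposited TPM; per the submitters' processing notes the tools include STAR and RSEM and the build is GRCh38, with no version, annotation or strand setting named. From these values log2(TPM + 1) was computed, genes below a mean of 1 TPM were left out, and Flag-IP was compared with input in limma 3.58.1 (R 4.3.3, trended empirical Bayes, Benjamini-Hochberg adjustment) across 6487 genes. The median-ratio scale used the same fit. Any member could be named, with values in full for core subunits, NDUFA4, NDUFA4L2, NDUFAB1 and the extremes of level and difference; of other lists, the 2 most abundant genes and the 2 with the largest differences. One member enters all counts and fits but is not reported here by itself. Members and lists were chosen with earlier results of these data known. Symbols were matched to GENCODE 29 by name (23794) or older symbol (545) for length, GC content and sequence; 2491 were not matched. The fit was tested on simulated data. Alternatives covered the filter, pseudocount, variance trend, scaling, length trend, threshold, replicate block and left-out libraries; GC trend removal and the crossed block were chosen after seeing the data.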

Additional observations from a re-analysis of the deposited data

How the results depend on the processing

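On the deposited scale the 30 members called higher became 6 without a filter, 15 with a filter at 5 TPM and 2 with quantile scaling, which also called 5 lower. Their median of 0.87 became 0.79 without a filter and with the 5 TPM filter (all genes 0.020 and 0.93), 1.01 with a pseudocount of 0.1 (all genes 1.19), 1.02 with the length trend removed and -0.11 with quantile scaling, and ran from 0.75 to 0.97 when 1 library was left out; the median of all genes became -0.051 with quantile scaling. All genes called higher, 5616, became 2342 without a filter, 1272 at 5 TPM and 1243 with quantile scaling, and those called lower, 48, became 17, 25 and 1219, with 24 after removing the length trend and 6 after removing the GC trend. Quantile scaling turned the deposited difference of NDUFA11 to -0.55, NDUFA12 -0.45, NDUFA13 -0.33, NDUFA2 -0.28, NDUFA3 -0.21, NDUFA6 -0.071, NDUFA7 -0.14, NDUFA8 -0.34, NDUFB1 -0.27, NDUFB10 -0.27, NDUFB11 -0.11, NDUFB2 -0.19, NDUFB5 -0.030, NDUFB7 -0.84, NDUFB8 -0.14, NDUFS6 -0.59, NDUFS8 -0.61, NDUFV1 -0.30 and NDUFV3 -0.39, and that of NDUFS7, which passed under neither scaling, to -0.58, and NDUFA12 ran from -0.10 (without Flag-IP 1) to 1.16 (without Flag-IP 3). On the median-ratio scale the 1 member called higher became 0 without a filter, with a pseudocount of 0.1, with either replicate block and without any 1 library (0 to 0), 2 at 5 TPM and with quantile scaling, 3 at an adjusted p below 0.1, 8 without structural RNAs and 9 with the length trend removed. The 11 called lower became 0 without a filter, 5 at 5 TPM and with quantile scaling, 6 without structural RNAs and with the length trend removed, and 6 to 10 when 1 library was left out (6 without Flag-IP 1, 7 without input 3). The member median of -0.19 became 0.013 without structural RNAs and 0.10 with the length trend removed. NDUFB8 turned to 0.033 with the length trend removed and NDUFB9 to 0.079 with quantile scaling. All genes called higher, 1444, became 77 without a filter, 392 at 5 TPM, 2206 without structural RNAs and 897 (without Flag-IP 1) to 1225 without 1 library; those called lower, 1207, became 20, 355, 711 and 567 (without Flag-IP 1) to 916. The stricter filter tests fewer genes; the cause of the other changes was not tested.

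Deviations of same-numbered libraries from their group means correlated at r = -0.19 over 6487 genes. With 2 libraries in each group this cannot show whether equal replicate numbers mark a pair. With the replicate number as a block 24 members (68.6%) were higher on the deposited scale, against 73.8% of all genes. On the median-ratio scale 10 (28.6%) were then lower and 0 higher, against 16.3% and 19.8% of all genes. With the pairing crossed, chosen after seeing the data, 32 members (91.4%) were higher on the deposited scale, against 91.1% of all genes. In that fit 10 members (28.6%) were lower on the median-ratio scale, against 19.7% of all genes. With 2 libraries in each group, no counts and no pull-down from untagged cells, changes in 1 library could decide a call, and depth limits cannot be given.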
